A study of Mus musculus with 8 samples.

Results

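Slc29a1, Sdc4, Atp2a2 and Megf6 are 4 mouse genes at which RNA polymerase II (Pol II) ChIA-PET of liver joined the same pair of 10 kb bins in 3 paired-end tags (PETs). They were chosen on measured values of these data, the PET count of the bin pair: at least 3 PETs between 8 and 100 kb long. Of 21883 protein-coding genes, 7 held an end of such a pair, which is 0.0320%, and the 4 genes are among them. All PETs of 2 to 100 kb with an end in the gene span or in the 20 kb either side were then listed, and PETs of 1 experiment and linker with the same read-1 position were counted once. These are called contacts here. The 4 gene windows held 30 contacts of 12899 in all.

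ChIA-PET pulls down crosslinked chromatin with an antibody, uses a linker to ligate DNA ends held together in a complex, and reads a short tag at each side. A PET therefore reports 2 genomic positions. Pol II transcribes protein-coding genes, gathers at their starts and moves along their bodies, so that a PET can join a start with a distant element, with the body of its own gene or with another gene. Ligation also joins ends of unrelated complexes, and PETs between different chromosomes are commonly taken to be of this kind. Those PETs still report where immunoprecipitated DNA ends lay. Slc29a1 encodes the equilibrative nucleoside transporter ENT1, which lets nucleosides cross the plasma membrane. Atp2a2 encodes SERCA2, the pump that returns calcium to the endoplasmic reticulum. Sdc4 encodes syndecan-4, a heparan sulfate proteoglycan of the cell surface, and Megf6 encodes a protein with many EGF-like domains.

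The livers came from wild-type C57BL/6 mice aged 3 to 6 months, under a cycle of equal light and dark with free access to food. They were taken at ZT06 (day) or ZT18 (night), where ZT counts hours from lights on. The antibody was 8WG16, against Pol II, and each immunoprecipitation took the pooled chromatin of 3 to 7 livers. Experiment 1 (4 libraries) and experiment 3 (2 libraries) were crosslinked with 1.5 mM EGS and 1% formaldehyde (dual crosslinking), and experiment 2 (2 libraries) with 1% formaldehyde alone. Each experiment had day and night libraries in equal number, 8 in all. The deposited rows name the experiment and the linker of each read but no library or time point, so day and night were not compared here. Each experiment is 1 pool with no spread between replicates. Intervals are 95% and cover counting error only, with PETs that lack molecular identifiers. Crosslinking and experiment cannot be told apart, since 1 experiment used formaldehyde alone.

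The table held 474478 PETs of experiment 1, 1438866 of experiment 2 and 840210 of experiment 3. The contacts numbered 2623, 2641 and 7635 in the same order. The liver label was checked on PET ends between chromosomes. The 6 hepatocyte markers had a median density of 42.1, 6.28 and 10.9 times the nuclear mean in experiments 1, 2 and 3, and 3 genes of striated muscle had 0.924, 1.29 and 1.54. Hepatocyte genes thus stood above muscle genes in the median of each experiment.

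Promoter sequences are shown because many of the contacts ended near a gene start. Of the 4 genes, 3 matched the RefSeq promoter table (GRCm38.p6), which gives 250 bases before to 50 after the start, 5′ to 3′ on the strand of the gene. Atp2a2 is not in that table. Slc29a1 lies on the minus strand with this promoter at chr17:45599569-45599868, Sdc4 on the minus strand at chr2:164443139-164443438 and Megf6 on the plus strand at chr4:154170463-154170762. Capitals mark matches to 4 motifs searched on both strands: the GC box GGGCGG, the CCAAT box CCAAT (read as ATTGG on the other strand), the E-box CACGTG and the TATA box TATAAA.
Slc29a1: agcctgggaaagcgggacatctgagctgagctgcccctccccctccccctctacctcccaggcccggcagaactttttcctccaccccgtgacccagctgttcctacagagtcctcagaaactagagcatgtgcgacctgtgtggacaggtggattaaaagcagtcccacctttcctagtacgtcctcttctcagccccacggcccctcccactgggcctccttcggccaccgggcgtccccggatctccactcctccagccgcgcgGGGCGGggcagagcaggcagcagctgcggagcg
Sdc4: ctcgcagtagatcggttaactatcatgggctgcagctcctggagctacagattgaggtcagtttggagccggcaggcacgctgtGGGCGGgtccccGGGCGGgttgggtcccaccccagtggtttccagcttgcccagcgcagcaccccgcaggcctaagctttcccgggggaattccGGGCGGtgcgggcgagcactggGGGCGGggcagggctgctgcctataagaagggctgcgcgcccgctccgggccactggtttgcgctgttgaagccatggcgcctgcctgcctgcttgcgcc
Megf6: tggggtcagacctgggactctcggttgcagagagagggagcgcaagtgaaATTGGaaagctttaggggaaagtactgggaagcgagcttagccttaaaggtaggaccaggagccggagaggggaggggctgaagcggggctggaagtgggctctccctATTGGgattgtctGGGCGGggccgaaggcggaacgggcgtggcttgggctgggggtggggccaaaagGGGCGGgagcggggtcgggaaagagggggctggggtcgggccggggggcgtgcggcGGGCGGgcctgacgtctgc
The Slc29a1 promoter held 1 GC box, that of Sdc4 held 4, and that of Megf6 held 3 along with 2 CCAAT boxes. None of the 3 held the letters of the E-box or the TATA box. Of 17491 promoters of the same length, 46.3% held a GC box, 39.2% a CCAAT box, 13.3% a TATA box and 7.91% an E-box. The G and C content was 65.0% for Slc29a1, 67.7% for Sdc4 and 67.0% for Megf6, against a median of 56.3%. A match is a match of letters only.

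Which pieces of each gene were joined, and in which experiments, was asked first. Sdc4 had 12 contacts, Slc29a1 and Atp2a2 had 7 each, and Megf6 had 4. Experiment 1 gave 13 of the 30, experiment 3 gave 16, and experiment 2 gave 1. An end within 2.5 kb of the annotated start, here called the promoter, was present in 18 of 30 contacts (60.0%, exact interval 40.6 to 77.3%). For Atp2a2, whose strand is not given in the tables used here, both gene boundaries counted as promoter. With 1 kb either side the share was 26.7%. The bin pair that chose each gene included the bin of its start or of a boundary, so the share is in part built in. No share over all contacts is set beside it, and nothing particular to the 4 genes is read from it. Both ends lay inside the gene span in 13 of 30, and at least 1 end in 25 of 30. The median length of the 30 contacts was 8.84 kb, and 53.3% were over 8 kb. Over all contacts the median was 3.22 kb with 23.7% over 8 kb, but the rule asked for PETs over 8 kb, so the difference is in part built in.

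**Figure D1:**
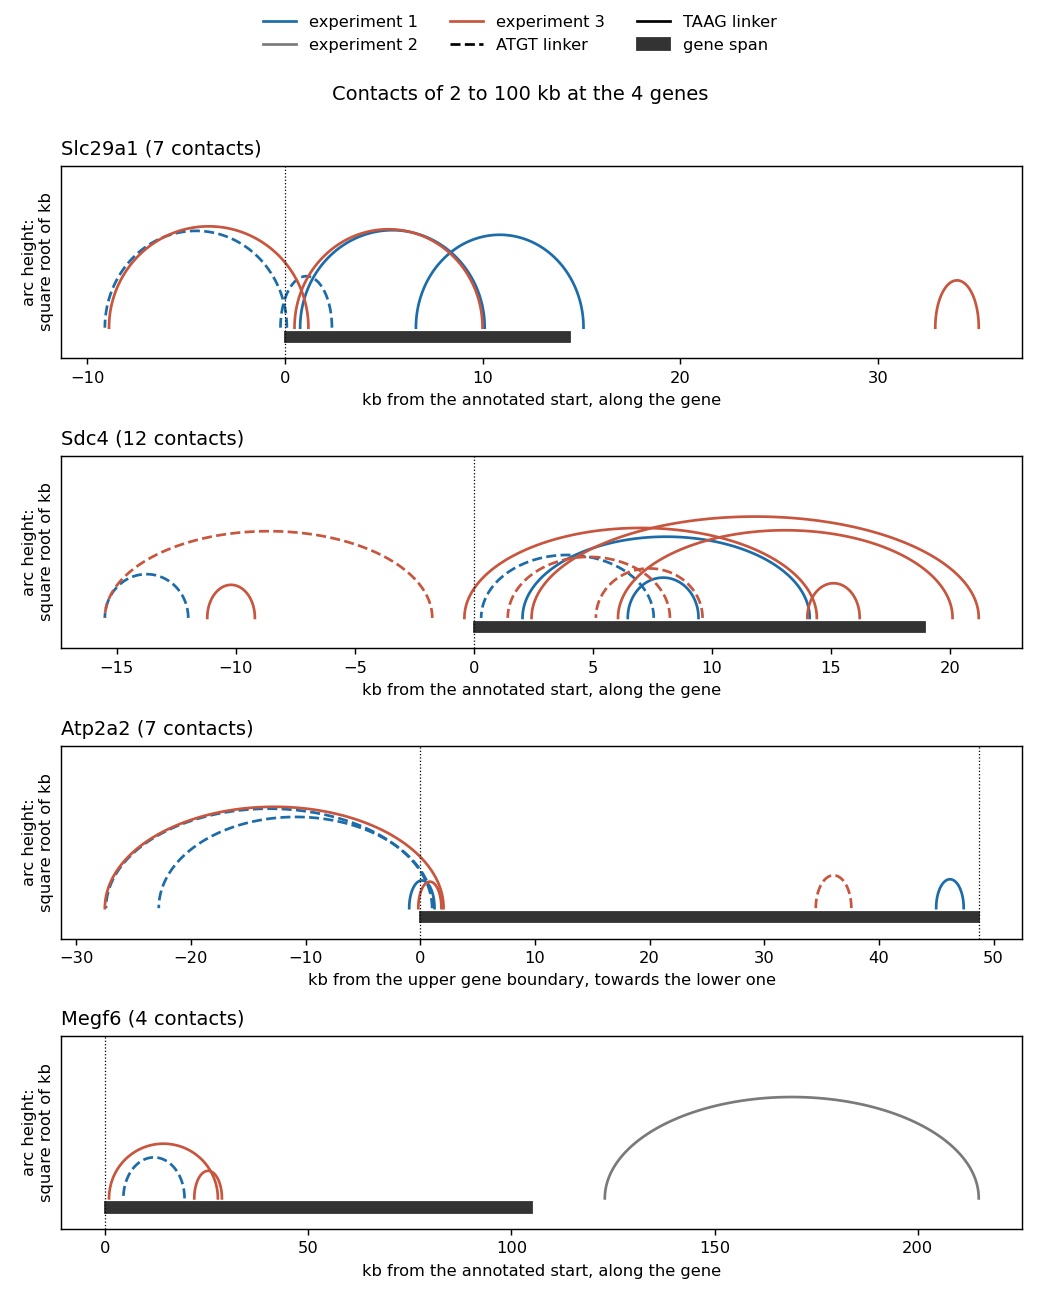
Contacts of 2 to 100 kb at the 4 genes, drawn as arcs between their 2 ends on an axis of kb from the annotated start along the gene (for Atp2a2, from the upper boundary), with the span as a bar and dotted lines at the start or boundaries; colour gives the experiment, line style the linker, and arc height is the square root of the length, scaled within each panel. Arcs of experiments 1 and 3 nearly overlie at Slc29a1 and at the upper boundary of Atp2a2, and the 1 arc of experiment 2 lies beyond the far end of Megf6. Some of the overlying arcs belong to the bin pairs that chose these genes, so nothing is read from their likeness.

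Slc29a1 (gene ID 63959) spans chr17:45585200-45599618, 14.4 kb. Its contacts numbered 2 with the ATGT linker and 2 with the TAAG linker in experiment 1, 0 in experiment 2, and 0 and 3 in experiment 3. A promoter end was present in 5 of the 7. In experiment 1 with the TAAG linker, a contact joined position 45589503 in the gene body with 45598857, which is 0.761 kb inside the gene from its start. In experiment 3 with the TAAG linker, a contact joined 45589631 with 45599142. The ends of these contacts differed by 128 and 285 bp. Both contacts belong to the bin pair that chose the gene, so nothing is read from their likeness.

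A second pair of Slc29a1 contacts pointed the other way, out of the gene. Positions 45599528 and 45608743 were joined in experiment 1 with the ATGT linker. Positions 45598438 and 45608530 were joined in experiment 3 with the TAAG linker. These differed by 1090 bp at the start and by 213 bp at the outer end. The outer ends lay 9125 and 8912 bp upstream of the start in no gene of the table, and the nearest gene was Mymx, which encodes a micropeptide of muscle cell fusion, 6.55 and 6.33 kb away. The remaining contacts of experiment 1 joined 45597251 with 45599851 across the start, and 45584543 with 45593003. The end at 45599851, 233 bp before the start, is the only contact end of the 3 genes that fell inside a printed promoter.

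Slc29a1 has 8 listed starts over 6.68 kb, and the printed promoter belongs to the most upstream one. The end at 45593003 lay 66 bp from the listed start at 45592937, and the end at 45597251 lay 100 bp from that at 45597151. Counting every listed start, 6 of the 7 contacts had an end within 2.5 kb of one. The other, from experiment 3, joined 45564557 with 45566759 inside Slc35b2, a transporter gene of the Golgi that overlaps the downstream flank, and did not touch Slc29a1.

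Atp2a2 (gene ID 11938) spans chr5:122453513-122502225, 48.7 kb. Its contacts numbered 2 and 2 with the ATGT and TAAG linkers in experiment 1, 0 in experiment 2, and 1 and 2 in experiment 3. All 7 had an end in the gene span and 6 had an end within 2.5 kb of a gene boundary, 5 of them at the upper boundary. The upper boundary was joined with the region above the gene 3 times. These are the 3 PETs of the bin pair that chose Atp2a2, so the repetition is built in. Experiment 1 with the ATGT linker joined 122501102 with 122525056 and 122501184 with 122529652, and experiment 3 with the TAAG linker joined 122500181 with 122529758. These contacts were 24.0, 28.5 and 29.6 kb long. Their outer ends lay in no gene of the table, 15.2, 10.6 and 10.5 kb from the nearest gene, Ift81, which encodes a protein of transport along cilia.

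The contact of experiment 3 and the longer one of experiment 1 matched within 1003 bp at the boundary and within 106 bp at the outer end. Both belong to the bin pair that chose the gene, so nothing is read from their likeness. Another pair crossed the upper boundary over a short distance. Experiment 1 joined 122500973 with 122503183 and experiment 3 joined 122500378 with 122502391, both with the TAAG linker. Their ends differed by 595 and 792 bp. The 2 contacts left were within the gene, 122454850 with 122457248 in experiment 1 and 122464612 with 122467702 in experiment 3, 2.40 and 3.09 kb long.

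Sdc4 (gene ID 20971) spans chr2:164424247-164443188, 18.9 kb, and had more contacts than the other 3 genes. Its Poisson interval (6.20 to 21.0) overlapped those of Slc29a1 and Atp2a2 (2.81 to 14.4 each) and Megf6 (1.09 to 10.2). Contacts with an end in the gene span numbered 9 for Sdc4, 7 for Atp2a2, 6 for Slc29a1 and 3 for Megf6. Experiment 1 gave 2 with the ATGT linker and 2 with the TAAG linker, experiment 2 gave 0, and experiment 3 gave 3 and 5. A promoter end was present in 6 of 12 contacts, and 6 had both ends in the gene span. In 4 contacts the promoter was joined with a body position between 7.55 and 14.4 kb into the gene. They were 164435637 with 164442884 (experiment 1, ATGT linker), 164429073 with 164441148 (experiment 1, TAAG linker), 164434958 with 164441772 (experiment 3, ATGT linker) and 164428746 with 164443589 (experiment 3, TAAG linker). The next promoter contact, in experiment 3 with the TAAG linker, ran from 164440770 past the far end of the gene to 164421974 and was the longest at 18.8 kb. So 5 of the 6 promoter contacts of Sdc4 pointed into or along the gene. Among these 5 are the 3 PETs of the bin pair that chose Sdc4, so the direction is in part built in.

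The other promoter contact of Sdc4 pointed upstream. In experiment 3 with the ATGT linker, 164444934 was joined with 164458665 inside Sys1, a gene for a Golgi membrane protein. In experiment 1 with the ATGT linker, an upstream position at 164455234 was joined with 164458653, 12 bp from that end in Sys1. The outer ends therefore nearly coincided while the inner ends were 10300 bp apart. Matching both ends within 2.5 kb gave 3 pairs of contacts at Sdc4, all within the gene or across its start. Their ends differed by 327 and 2441 bp, by 172 and 1338 bp, and by 679 and 1112 bp. In experiment 3 with the TAAG linker, 164452384 was joined with 164454390, both in the upstream flank and in no gene of the table. The other overlapping genes of the window, Matn4 and Rbpjl, held no contact end.

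Megf6 (gene ID 230971) spans chr4:154170704-154275721 and is the longest of the 4 at 105 kb. It had 1 contact in experiment 1, 1 in experiment 2 and 2 in experiment 3, and 1 of the 4 had a promoter end. That contact, of experiment 3 with the TAAG linker, joined 154171731 with 154198489 over 26.8 kb. Another of the same experiment and linker joined 154192668 with 154199546. The contact of experiment 1 rested on 2 PETs of the ATGT linker that shared the read-1 position 154175250, with read-2 positions 154190310 and 154190312. They were 2 bp apart and were counted once. The repeated bin pair of Megf6 therefore held 2 contacts and not 3 once shared positions were collapsed. The contact of experiment 2 joined Arhgef16 at 154293313 with Prdm16, a gene for a transcription regulator, at 154386107. These ends were 92.8 kb apart, and neither lay in Megf6.

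The rule counted bins, and the repeated PETs did not all join the same points. The 3 PETs of the bin pair spread over 5.09 kb at the lower and 6.14 kb at the upper side for Slc29a1, and over 1.00 and 4.70 kb for Atp2a2. For Sdc4 the spreads were 7.10 and 2.82 kb, and for Megf6 they were 3.52 and 8.18 kb. With bins that started at 5 kb, Atp2a2 alone of the 4 had a pair of 3 PETs. After shared read-1 positions were collapsed, Slc29a1, Sdc4 and Atp2a2 had one and Megf6 did not. No pair held more than 3 PETs. There were 7 bin pairs with 3, 85 with 2, and 2884 with 1. Just outside the threshold, 107 genes had a pair of 2 PETs and none of 3.

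Contacts of different experiments that matched within 2.5 kb at both ends were counted for every gene, a tolerance chosen after the values were seen. Of the 4 genes, 3 had such a match: Slc29a1 with 2, Sdc4 with 3 and Atp2a2 with 2. Megf6 had 0. Over all protein-coding genes 371 windows held a match, which is 1.70%. The rule drew on the same PETs, so nothing is read from this count. All 7 matches were between experiments 1 and 3, and both contacts were over 8 kb in 4 of them. With a tolerance of 1 kb 2 matches were counted, and with 5 kb 11.

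**Figure D2:**
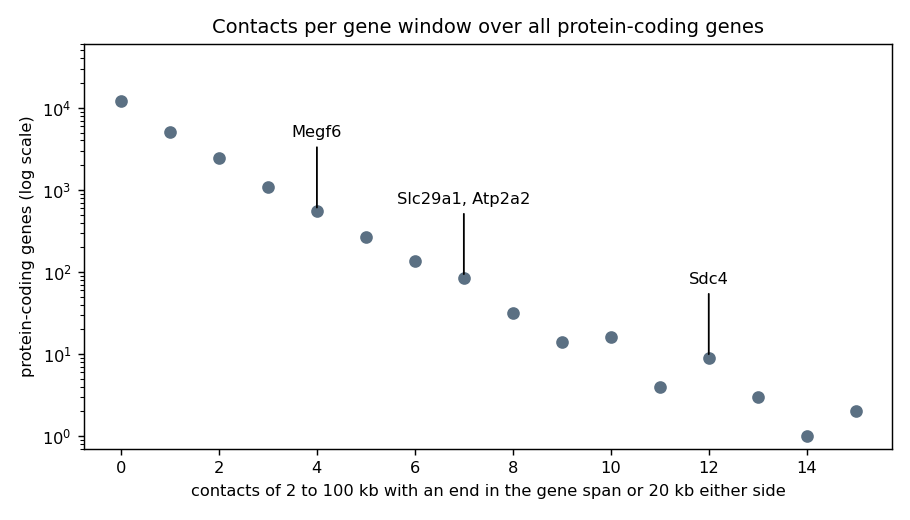
Number of protein-coding genes (points, log scale) by the number of contacts of 2 to 100 kb with an end in the gene span or 20 kb either side, with the 4 genes marked. Genes with 0 contacts made up 55.6%, Megf6 sits at 4, Slc29a1 and Atp2a2 at 7 and Sdc4 at 12, where the highest gene had 15. The PETs that chose the 4 genes are counted, so their places are in part built in.

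The contacts per window place the genes among all others, as a description. The PETs of the bin pairs that chose the genes are counted here, so their high places are in part built in. As many contacts as Sdc4 were found in 0.0685% of genes, as many as Slc29a1 or Atp2a2 in 0.759%, and as many as Megf6 in 5.13%. The median gene had 0. Windows differ in length, from 54.4 kb for Slc29a1 to 145 kb for Megf6. Per 10 kb of window, Sdc4 had 2.04 contacts, Slc29a1 1.29, Atp2a2 0.789 and Megf6 0.276, and 14.0% of genes had as many as Megf6. Among 12 family relatives (other equilibrative nucleoside transporters, syndecans, SERCA pumps and Megf genes), 7 had a contact, with 15 in all and a median of 1. Sdc1 and Megf11 had the most, with 4 each. The relatives were not chosen on PETs, so nothing is read from their lower counts.

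Experiments 1 and 2 had almost the same number of contacts, and the 4 genes differed in their share of them. Of 1000 contacts they held 4.96 (2.64 to 8.48), 0.379 (0.00959 to 2.11) and 2.10 (1.20 to 3.40) in experiments 1, 2 and 3. The intervals of experiments 1 and 3 overlapped, and those of experiments 1 and 2 did not. Experiment 2 gave 0 PETs of the bin pairs that chose the genes. The gap between experiments 1 and 2 is therefore in part built in, and nothing is read from it. For Slc29a1, Sdc4 and Atp2a2 the count in experiment 2 was 0, which allows up to 1.14 of 1000 contacts for each. Each of these 3 genes had 1.52 of 1000 in experiment 1 (0.416 to 3.90), an interval that overlaps this limit, so for a single gene no difference was detectable at this depth. In pooled livers, fewer cells with a contact and fewer PETs recovered from each cell cannot be told apart. Since the genes were chosen on PETs of all experiments together, these shares are a description.

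PETs that join different chromosomes did not enter the rule, and their ends measure how much DNA of a gene was recovered. Ends were counted over the gene and 2.5 kb either side and divided by the nuclear mean per kb. Slc29a1, Sdc4 and Atp2a2 lay above the mean in every experiment, and Megf6 did not, with 0.973 in experiment 2. Over all protein-coding genes 34.4% were above the mean in every experiment, and with 4 genes nothing particular to them is read from 3 of 4.

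For Sdc4 the values in experiments 1, 2 and 3 were 11.2 (8.77 to 14.0), 1.39 (0.966 to 1.95) and 5.53 (4.32 to 6.97) times the mean. Slc29a1 had 7.25 (5.16 to 9.92), 1.87 (1.32 to 2.58) and 5.09 (3.81 to 6.65). Their intervals overlapped in each experiment, and both genes were lower in experiment 2 than in the other two. Atp2a2 had 2.35 (1.64 to 3.27), 1.35 (1.06 to 1.70) and 2.39 (1.86 to 3.03), below Slc29a1 and Sdc4 in experiments 1 and 3. Megf6 had 1.31 (0.938 to 1.79), 0.973 (0.799 to 1.17) and 1.36 (1.07 to 1.69), near the medians of all genes of 1.10, 1.07 and 1.28. Its intervals overlapped those of Atp2a2 in experiments 1 and 2 but not in experiment 3.

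**Figure D3:**
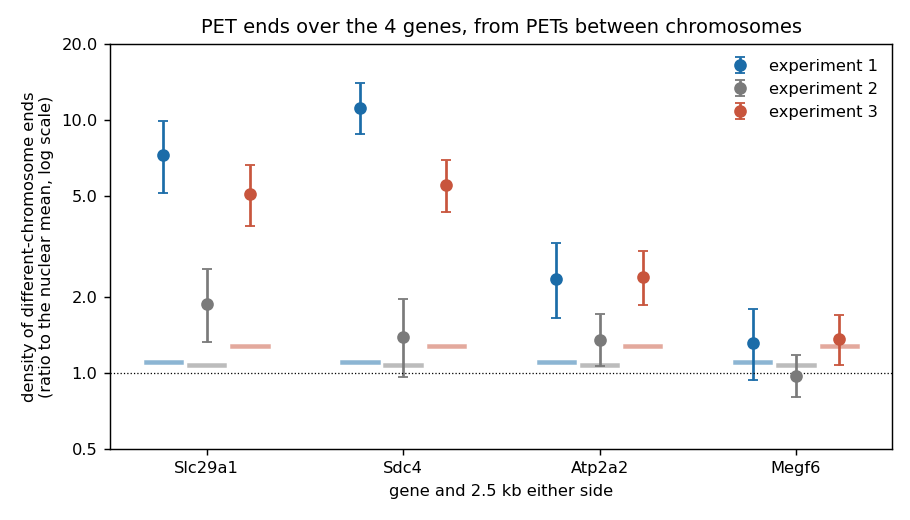
Density of PET ends from PETs between chromosomes over each gene and 2.5 kb either side, as a ratio to the nuclear mean on a log axis, with 1 point for each experiment; bars are exact 95% Poisson intervals and short pale lines are the medians of all protein-coding genes. Sdc4 and Slc29a1 lie between 5.09 and 11.2 in experiments 1 and 3, while Megf6 stays between 0.973 and 1.36 in all 3.

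In both linker subsets of experiment 1 the order was Sdc4, Slc29a1, Atp2a2 and Megf6. Sdc4 had 11.0 with the ATGT linker and 11.3 with the TAAG linker, and Slc29a1 had 5.62 and 8.33. Atp2a2 had 2.54 and 2.23, and Megf6 had 1.32 and 1.31. The intervals of the 2 linkers overlapped for each of the 4 genes in experiment 1. In experiment 2, Slc29a1 had 3.26 with the ATGT linker (1.78 to 5.46) and 1.49 with the TAAG linker (0.942 to 2.23), which also overlap. The order differed there: Sdc4 was below Slc29a1 with 2.07 and 1.21, and with the TAAG linker also below Atp2a2 with 1.45. In experiment 3, Sdc4 was above Slc29a1 with the ATGT linker (6.37 and 4.23) and below it with the TAAG linker (4.76 and 5.87).

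PETs at most 2 kb long, also no part of the rule, placed Sdc4 and Slc29a1 high as well. Their ends over Sdc4 reached 34.4 times the mean in experiment 1 (26.8 to 43.5) and 13.3 in experiment 3 (8.98 to 19.0), with experiment 2 between them (interval 12.1 to 25.6). Over Slc29a1 they reached 23.4, 16.2 and 6.56, and over Atp2a2 4.00, 4.80 and 4.35. Megf6 had 0.434 (0.118 to 1.11), 0.521 (0.142 to 1.33) and 1.35 (0.739 to 2.27). The Megf6 intervals all included the mean. Both ends of so short a PET mostly fall in the same gene. These intervals count each end singly, so they are too narrow.

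Where the ends lay along each gene differed between the 4. At Sdc4 the 2.5 kb either side of the start had densities of 22.4 (15.2 to 31.8), 3.93 (2.40 to 6.07) and 10.1 (6.63 to 14.6) in the 3 experiments. The rest of the gene had 6.15 (4.09 to 8.89), 0.717 (0.370 to 1.25) and 4.53 (3.24 to 6.17). The start was above the rest in each experiment with intervals that did not overlap. At Atp2a2 the upper boundary had 10.8 (6.06 to 17.9), 5.69 (3.81 to 8.18) and 7.45 (4.55 to 11.5), and the rest of the gene had 1.40 (0.818 to 2.25), 0.966 (0.699 to 1.30) and 1.75 (1.25 to 2.37). These intervals did not overlap either, and the lower boundary had 2.17, 0.393 and 2.98.

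Slc29a1 had no such peak at its most upstream start, which had 3.61 (1.17 to 8.43), 1.96 (0.942 to 3.61) and 2.98 (1.29 to 5.87) against 9.40 (6.38 to 13.3), 1.98 (1.27 to 2.94) and 6.41 (4.60 to 8.70) in the rest of the gene. That rest includes other listed starts. Its downstream flank, where Hsp90ab1 lies, had 10.7, 2.16 and 5.03. Hsp90ab1, a gene for an abundant chaperone, had 18.3, 3.00 and 7.64 and was the densest neighbour of the 4 genes in each experiment. No contact ended in Hsp90ab1, and the part of end density in the contacts was not tested. Slc35b2 beside it had 9.49, 1.46 and 3.62. At Megf6 the start had 0, 1.77 and 1.12 and the rest of the gene 1.41, 0.929 and 1.38, so no peak at the start was detectable.

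**Figure D4:**
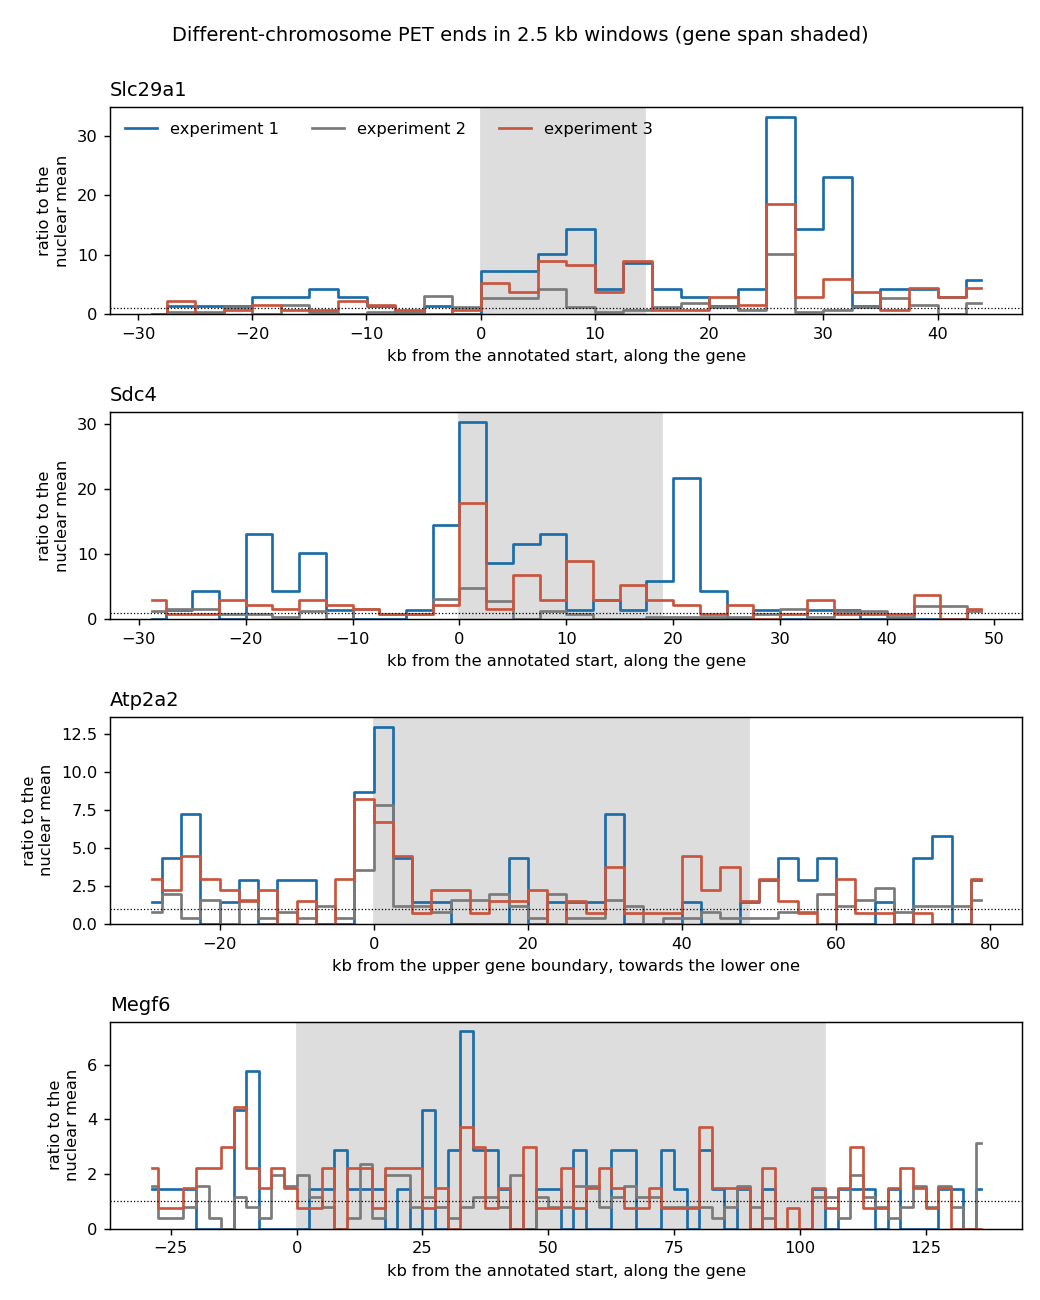
Different-chromosome PET ends in windows of 2.5 kb along each gene, as a ratio to the nuclear mean (dotted line at 1), by kb from the annotated start along the gene or, for Atp2a2, from the upper boundary; the span is shaded, colours give the 3 experiments, and the vertical axes differ. The curves peak at the start of Sdc4 and at the upper boundary of Atp2a2, the highest windows of the Slc29a1 panel lie downstream over Hsp90ab1, and Megf6 shows no peak at its start.

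The bins that the repeated contacts joined were compared in the same way. The outer bin of Atp2a2, which holds no gene at the contact ends, had 3.25 (1.49 to 6.17), 0.982 (0.471 to 1.81) and 3.73 (2.28 to 5.76) times the mean. The bin at its boundary had 5.78, 3.24 and 4.47. At Sdc4 the bin at the start had 12.3, 2.75 and 5.59, and the bin at the far end had 7.95, 0.196 and 3.17. At Slc29a1 the upper bin had 9.39, 3.04 and 6.34 and the lower bin 5.42, 0.884 and 3.91. In these 3 genes the bin without the start or boundary was above the mean in the dual-crosslinked experiments and below it in experiment 2. In experiment 2 its interval included the mean except at Sdc4. The bins were picked through PETs of experiments 1 and 3, with 0 from experiment 2, so nothing is read from this contrast. Both bins of Megf6 lay between 0.932 and 1.86 with intervals that included the mean. More ends in a bin give more chance of a PET between bins, and the part of end density in the contacts was not tested.

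Of the remaining neighbours, Sys1, which holds the outer end of 1 contact of the Sdc4 promoter, had 3.45, 1.08 and 2.17. Mymx beside Slc29a1 had 2.32, 2.52 and 1.49, and Anapc7 below Atp2a2 had 1.97, 1.29 and 0.950. Around Megf6, Tprgl had 2.57, 0.600 and 2.85, Wrap73 had 1.11, 0.857 and 1.82, and Arhgef16 had 0.814, 0.995 and 1.33. Matn4 had 0.696, 1.51 and 1.26, and Rbpjl had 0.624, 0.905 and 1.18. Over the 12 family relatives the median was 0.857, 1.19 and 1.39, and 5 of 12 were above the mean in every experiment. Sdc1 was the highest of them in experiment 1, with 3.83.

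Beyond 100 kb the genes had few PETs. Between 100 kb and 2 Mb, Slc29a1 had 1, Megf6 had 2, and Sdc4 and Atp2a2 had 0. The median gene also had 0, and 5.55% of genes had as many as Megf6.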

How the data were processed

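PETs of Pol II ChIA-PET on mouse liver were taken from 1 table without a header, deposited by the authors for all libraries together. Each row gives the experiment, the linkers, the chromosome and position of both ends (positions in bp, a unit other than read counts), and a distance. Bowtie2 and mm10 are named per the submitters' processing notes, and no source used here states the other steps. PET ends within 1 kb of 17491 RefSeq starts (GRCm38.p6) numbered 254221, against 80768 and 78891 in windows 100 kb away, so RefSeq coordinates were used with the positions.

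Contacts, parts and bin pairs were counted as defined in the text. Densities are ends of PETs between chromosomes relative to the mean over 2505.77 Mb of 10 kb bins with an end. Intervals are exact Poisson or Clopper-Pearson at 95%. The depth was 474478 to 1438866 PETs an experiment, and no test between experiments was run, since each is 1 pool. The counting was tested on simulated data. Python 3.11, pandas 2.3.3, NumPy 2.4.6, SciPy 1.17.1 and Matplotlib 3.10.9 were used.

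The members and lists were chosen with earlier results of these data known. Named genes were the 4 members, 12 family relatives, genes that overlap a window or hold a partner end, and for each member the 2 genes nearest by Euclidean distance of log2 density over 6 experiment and linker subsets (pseudocount of 1 end); 1 of these is not reported here. Genes nearest to a contact end were added after the values were seen. Marker lists covered hepatocytes, Kupffer, endothelial and stellate cells, cholangiocytes and striated muscle. The alternatives tried were other distances, flanks, bin starts, promoter widths, tolerances and collapsing, and leaving out each experiment.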

Additional observations from a re-analysis of the deposited data

How the results depend on the processing

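Of 64 alternatives over 9 results, 54 left the value within its error or within 1.5 times the count and 10 moved it. The results are counts or shares, which have no sign to reverse. The errors of such small counts are wide: Slc29a1 fell from 7 contacts to 3 without experiment 1 and was classed as unmoved. The 30 contacts became 16 with a minimum of 8 kb. They ranged from 14 to 29 when 1 experiment was left out, with 17 without experiment 1, 29 without experiment 2 and 14 without experiment 3. Sdc4 moved from 12 contacts to 5 with a minimum of 8 kb and to 4 without experiment 3. The share of contacts with a promoter end moved from 60.0% to 26.7% with 1 kb either side. All 4 genes had a pair of 3 PETs, against 1 of them with bins starting at 5 kb. Matched contacts numbered 7, with 2 at a tolerance of 1 kb, 11 at 5 kb and 4 with a minimum of 8 kb. The tolerance, the limit to contacts or ends in or near the gene span, and dropping shared read-1 positions were chosen after seeing the data. No paired analysis was possible because the deposited rows carry no library or replicate number. Counts of 4 to 12 contacts for each gene limit what any of these values can show.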

Other observations

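Besides those of the 4 genes, 3 bin pairs reached 3 PETs. The pair at Fbp1, which encodes a gluconeogenic enzyme, had all 3 from experiment 1, with lengths of 8.56 to 11.4 kb. A pair with ends in Atp5d and Midn had 1 from experiment 1 and 2 from experiment 3, with lengths of 11.1 to 20.6 kb. A pair on chromosome 11 with no end in a protein-coding gene had all 3 from experiment 1. As at the 4 genes, experiment 2 gave 0 PETs of these pairs.

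By the density of different-chromosome ends over the 6 experiment and linker subsets, the genes most like Slc29a1 were Sec14l2 and Gabarap, at Euclidean distances of 0.53 and 0.56 (log2) against a median gene at 4.68. For Sdc4 the nearest was Sc5d (0.59) against a median of 5.45, and for Atp2a2 they were Brox (0.27) and Jade2 (0.30) against 2.46. For Megf6 they were Osmr (0.18) and Osbpl8 (0.19) against 1.68. Sec14l2 had 8 contacts and Gabarap 2, beside 7 for Slc29a1. Sc5d had 2, beside 12 for Sdc4. Brox had 0 and Jade2 had 5, beside 7 for Atp2a2, and Osmr had 0 and Osbpl8 had 1, beside 4 for Megf6. The 4 genes were chosen on PETs that are among their contacts, and the genes beside them were not. Differences in contacts are therefore in part built in, and nothing is read from them. The windows of these genes differ in length, and the part of end density in the contacts was not tested.

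Among the other cell types of liver, median densities of the marker lists lay between 0.717 and 1.47 in all 3 experiments. The hepatocyte list ran from 0.392 for Serpina1c in experiment 2 to 66.6 for Alb in experiment 1.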
